A study of Mus musculus with 12 samples.

Results

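The Zfp genes are mouse genes named for zinc finger proteins. The members described here were chosen by measured signal: of 333 Zfp genes with 1 gene symbol in the platform annotation, read by 616 probe sets, the 130 whose brightest probe set had a mean deposited signal of 50 or more over the 12 arrays were kept. Zfp36, Zfp36l1 and Zfp36l2, which bind RNA and are named Zfp for another kind of finger, were left out. The whole series held 18194 such genes, of which 12792 passed a filter on low signal and were tested, all 130 members among them. Of the 203 Zfp genes below 50, 138 were tested. Just inside the threshold lay Zfp623 at 50.4, Zfp865 at 50.8 and Zfp408 at 51.1, and just outside it Zfp825 at 49.3, Zfp182 at 48.9 and Zfp444 at 48.8. A signal is a probe set's brightness on a linear scale, so levels were compared between arrays for 1 gene and not between genes.

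The classical zinc finger is a short loop held by a zinc ion between 2 cysteines and 2 histidines, and arrays of such fingers read DNA sequence. Many Zfp proteins also carry a KRAB domain, which binds the co-repressor Trim28 and through it the histone methyltransferase Setdb1, heterochromatin proteins and histone deacetylases, and so silences retroelements and genes near them. KRAB zinc finger genes lie in clusters of recent duplicates. Other Zfp proteins work outside this pathway, as ubiquitin ligases, ribosome assembly factors or RNA-binding proteins, and share little beyond the name.

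Messenger RNA came from dendritic cells of the lymph node, which present antigen to T cells, taken from C57BL/6 mice. Cells labelled p38a-knockout (KO) and wild-type cells (WT) were cultured with Pam3CSK4, a synthetic lipopeptide ligand of TLR2, at a labelled dose of 1 mg/ml, a unit that could not be checked. They were sampled at 0, 2 and 4 h, with 2 arrays, A and B, in each of the 6 groups. The labels do not state whether the 2 arrays came from separate animals or cultures, so p-values measure the spread between arrays, which may be technical. No untreated arrays at 2 or 4 h were analysed here, so ligand and time in culture cannot be told apart. The sources used here do not give the promoter or cell type behind the knockout.

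Per array, the trimmed mean of the deposited signal lay between 66.6 and 119, and the values were quantile-normalised before testing. Arrays of 1 group correlated with r of 0.986 to 0.990 over all tested genes and of 0.956 to 0.975 over the members, genes that are not independent replicates. Mapk14, which encodes p38α, was not lower on the KO arrays: its brightest probe set averaged over the times was higher by 0.31 ± 0.08 on the log2 scale (SE, limma, adjusted p = 0.014), so genotype below means the arrays labelled KO or WT. All 11 measured dendritic cell markers were tested, with a summed signal of 26858 to 30888 on KO arrays and 26810 to 31486 on WT arrays. Single markers differed. Averaged over the times, Itgax, H2-Ab1 and Batf3 were higher on KO arrays, by 0.50, 0.46 and 0.44 (limma, adjusted p = 0.000118, 5.71e-05 and 1.12e-05). Ccr7 was lower by -0.17 (adjusted p = 0.00217), and the others did not reach an adjusted p under 0.05. At 2 h against 0 h Cd86 changed by 1.25 in KO and 1.64 in WT cells, and Batf3 by -0.79 and -0.52. The summed signal of 6 macrophage markers was higher on KO arrays, and it fell with time: 1868 to 1966 at 0 h, 1306 to 1368 at 2 h and 1264 to 1285 at 4 h on KO arrays, and 1192 to 1210, 832 to 901 and 760 to 821 at the same times on WT arrays. The sum does not speak for each marker. Adgre1 was higher at 4 h than at 0 h by 0.52 ± 0.14 in KO and 0.66 ± 0.14 in WT cells (limma, adjusted p = 0.0148 and 0.00276). The others had changes below 0, of -1.14 ± 0.09 and -1.27 ± 0.09 for Csf1r. Cd79b, a B cell receptor subunit, was lower at 4 h than at 0 h by 1.48 ± 0.13 in KO and 1.45 ± 0.13 in WT cells. The other tested B cell markers did not move together. In KO and WT cells Cd79a changed by -0.73 and -0.45 and Blk by -0.16 and -0.33 at 4 h against 0 h. Ebf1 changed by -0.21 and 0.03, and Ms4a1 by 0.22 and 0.38. S100a8, a neutrophil and monocyte protein, was higher at 4 h than at 0 h by 1.67 ± 0.14 in KO and 1.66 ± 0.14 in WT cells. The other neutrophil markers did not all follow it. S100a9 changed by 0.61 and 0.65 (limma, adjusted p = 0.0593 and 0.0438). Mpo changed by -0.06 and 0.05 and Elane by 0.75 and -0.03, all with an adjusted p above 0.05, and Cxcr2 was not tested. In such bulk samples fewer cells of a type and less RNA per cell cannot be told apart. The part of these markers in the results below was not tested.

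The members' promoters were rich in GC letters. RefSeq windows of 250 bases before the gene start were given for 107 of the 130 members, in 134 windows (GRCm38.p6), and each was searched on both strands for 5 motifs. GGGCGG, the Sp1 box, stood in 56.0% of the members' windows and in 32.7% of all promoters. CCGGAAGT, an ETS motif, was found in 6.72% against 2.88%, and TGACGTCA, the cyclic AMP response element, in 3.73% against 1.55%. Motifs of inflammatory factors had closer shares: TGACTCA, the AP-1 site, stood in 4.48% against 4.46%, and GGGACTTTC or GGGAATTTC, an NF-kB site, in 0.746% against 0.524%. The members' windows held a median of 14 CpG pairs, against 6 in all windows. The members were chosen by signal, while the windows of all promoters were not. Windows of other genes that reach the members' minimum signal were not compared, so no difference is read as particular to the members. A match is a run of letters and not a site in use. The 5 windows printed here belong to the members on which the results below turn: Zfp617 (chr8:71922575-71922824, plus strand) and its neighbour Zfp961 (chr8:71950816-71951065, plus strand), both higher after the ligand, Zfp296 (chr7:19577037-19577286, plus strand), higher at 2 h, and Zfp945 (chr17:22867135-22867384, minus strand) and Zfp983 (chr17:21650361-21650610, plus strand), both lower at 2 h. Each runs 5′ to 3′ with matches in capitals.
Zfp617: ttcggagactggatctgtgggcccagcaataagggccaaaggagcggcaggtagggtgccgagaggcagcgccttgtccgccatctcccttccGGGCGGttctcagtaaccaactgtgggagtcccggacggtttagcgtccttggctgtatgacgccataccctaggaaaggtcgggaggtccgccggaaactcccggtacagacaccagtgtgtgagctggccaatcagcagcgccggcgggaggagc
Zfp961: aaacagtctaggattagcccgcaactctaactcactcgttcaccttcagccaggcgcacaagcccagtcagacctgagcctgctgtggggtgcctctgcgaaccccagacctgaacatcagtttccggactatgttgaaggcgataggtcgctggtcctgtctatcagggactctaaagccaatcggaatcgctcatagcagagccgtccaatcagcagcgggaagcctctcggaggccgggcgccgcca
Zfp296: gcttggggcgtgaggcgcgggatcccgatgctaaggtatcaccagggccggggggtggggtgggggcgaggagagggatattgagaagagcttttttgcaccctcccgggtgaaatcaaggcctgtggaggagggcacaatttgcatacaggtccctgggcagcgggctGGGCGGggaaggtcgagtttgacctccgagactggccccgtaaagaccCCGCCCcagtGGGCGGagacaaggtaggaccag
Zfp945: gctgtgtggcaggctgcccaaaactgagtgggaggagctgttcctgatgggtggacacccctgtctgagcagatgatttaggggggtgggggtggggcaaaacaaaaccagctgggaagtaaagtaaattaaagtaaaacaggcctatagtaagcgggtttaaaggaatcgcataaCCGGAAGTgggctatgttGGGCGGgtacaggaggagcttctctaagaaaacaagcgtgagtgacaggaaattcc
Zfp983: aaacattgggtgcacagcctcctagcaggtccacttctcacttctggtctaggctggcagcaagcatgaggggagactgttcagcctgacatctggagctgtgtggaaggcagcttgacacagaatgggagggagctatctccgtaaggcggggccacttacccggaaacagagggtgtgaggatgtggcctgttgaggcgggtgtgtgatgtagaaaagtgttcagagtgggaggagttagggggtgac
Zfp617 held 1 Sp1 box, Zfp296 3, and Zfp945 1 Sp1 box and 1 ETS motif, while none of the 5 motifs was found in these windows of Zfp961 and Zfp983.

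The members' mean deposited signals ran from 50.4 to 1645 with a median of 108.9. Signals of 50 to 100 were found for 62 members, 100 to 200 for 45 and 200 or more for 23. The brightest were Zfp622, an assembly factor of the large ribosomal subunit, at 1645, Zfp207, a spindle protein that carries Bub3 to kinetochores, at 687.1, Zfp217, which binds CoREST and CtBP co-repressors in human cells, at 668.6, and Zfp445, a KRAB protein that keeps imprints, at 666.0. In 20 members at least 1 group mean of the normalised signal lay below 50. On the log2(signal + 16) scale used for tests the median SD between the 2 arrays of a group was 0.093 over the members, against 0.099 over all tested genes.

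At 2 h more members were lower than higher, in both genotypes. Of the 130 members 24 were called lower (18.5%) and 10 higher (7.69%) at 2 h than at 0 h in KO cells, where calls are limma adjusted p under 0.05 over all tested genes. Over all 12792 genes 11.7% were lower and 7.84% higher. In WT cells 23 members were lower (17.7%) and 12 higher (9.23%), against 11.5% and 8.43% of all genes. Among the 7867 other genes with a signal of 50 or more the shares were 16.5% lower and 11.3% higher in KO cells and 17.0% and 12.4% in WT cells. Those genes share the members' floor but were brighter on every array, with medians of 7.61 to 7.70 on the log2 scale, against 6.80 to 6.97 over the members. Differences between these shares were not tested, and none is read as particular to the members. The median log2 change of the members was -0.14 in KO and -0.15 in WT cells, against -0.06 and -0.05 over all genes. The members' signs were the same under all 3 scalings tried. Without normalisation, however, the median of all genes moved further below 0 as well, so the sign at that setting says nothing about the members. The scalings moved the split: without normalisation 55 were lower and 1 higher in KO cells and 41 and 1 in WT cells, and after trimmed-mean scaling 33 and 9 in both. Shares of all genes called under those scalings are not given here, so the moved counts are no result about the members. Leaving out 1 array of the comparison also cut the counts, to 11 lower without KO 0 h A, 10 without KO 0 h B, 13 without KO 2 h A and 11 without KO 2 h B, and to 13 without WT 0 h A, 15 without WT 0 h B, 14 without WT 2 h A and 11 without WT 2 h B. The 10 rises in KO cells became 6 without KO 0 h B and 5 without KO 2 h B, and the 12 in WT cells 6 without WT 2 h B.

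**Figure D1:**
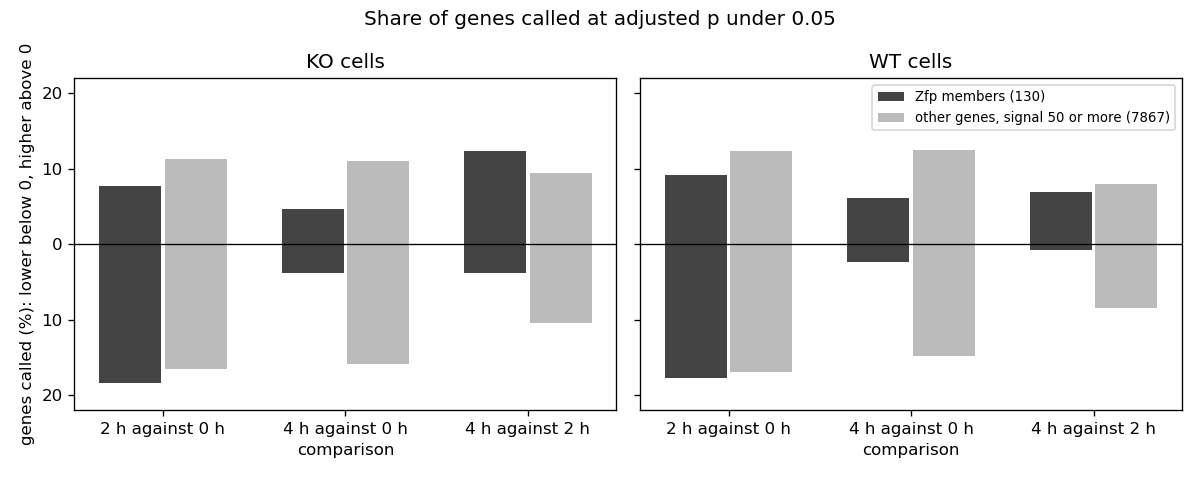
Share of genes called higher (bars above 0) or lower (bars below 0) in 3 comparisons of times, in percent, for KO cells on the left and WT cells on the right. Dark bars stand for the 130 Zfp members and light bars for the 7867 other genes with a signal of 50 or more. At 2 h against 0 h the members' shares of falls, 18.5% and 17.7%, lie near the light bars, and at 4 h against 0 h all dark bars are shorter than the light ones.

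Zfp617 was the member that changed most at 2 h, and the only one higher by more than a doubling. Its KO arrays read 133 and 152 at 0 h, 351 and 346 by 2 h and 261 and 259 by 4 h. On WT arrays it gave 158 and 194, 409 and 425, and 336 and 352 at the same times. Every array at 2 or 4 h lay above every array at 0 h within a genotype. The log2 change at 2 h was 1.20 ± 0.10 in KO and 1.18 ± 0.10 in WT cells (SE, limma, adjusted p = 4.57e-07 and 4.82e-07), and it was called under every alternative and with each array left out. A second probe set of the gene rose by 1.18 ± 0.10 and 1.36 ± 0.10.

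Zfp296, known from pluripotent stem cells, and Zfp280b were highest at 2 h. Zfp296 gave 115 and 90.3 at 0 h, 188 and 176 by 2 h and 130.0 and 138 by 4 h on KO arrays. Its WT arrays read 84.1 and 84.0, then 175 and 169, then 96.7 and 102. The 2 h arrays stood above those of both other times in each genotype, and the rise at 2 h was 0.75 ± 0.12 in KO and 0.91 ± 0.12 in WT cells (limma, adjusted p = 0.000304 and 4.12e-05). Zfp280b gave 83.1 and 72.7 at 0 h, 142 and 133 by 2 h and 67.0 and 60.9 by 4 h on KO arrays. In WT cells the arrays read 58.4 and 69.5, then 125 and 120.3, then 91.3 and 102. It rose by 0.71 ± 0.13 and 0.80 ± 0.13 at 2 h (limma, adjusted p = 0.000882 and 0.000292), and by 4 h the KO arrays were back below those of 0 h while the WT arrays stayed above them, by 0.50 ± 0.13 at 4 h against 0 h (adjusted p = 0.0116), a call lost when WT 0 h A or WT 4 h B was left out (highest adjusted p 0.115). Both genes kept the calls at 2 h with each array left out and lost them on the deposited scale, where Zfp617 was the only member called higher at 2 h.

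Zfp598, a ubiquitin ligase that marks collided ribosomes, gave 200.5 and 246 at 0 h, 307 and 327 by 2 h and 269 and 286 by 4 h on KO arrays. Its WT arrays read 186 and 216, then 300.1 and 312, then 318 and 335. All arrays at 2 and 4 h were above those at 0 h, with changes at 2 h of 0.48 ± 0.11 in KO and 0.57 ± 0.11 in WT cells (limma, adjusted p = 0.00446 and 0.00105). The KO call was lost without KO 0 h A (with adjusted p = 0.0716). Zfp622, which helps mature the large ribosomal subunit, gave 1428 and 1449, 2051 and 1835, and 1763 and 1636 on KO arrays at 0, 2 and 4 h. On WT arrays it gave 1315 and 1203, 1903 and 1824, and 1896 and 1639. It rose at 2 h by 0.43 ± 0.08 and 0.56 ± 0.08 (limma, adjusted p = 0.00149 and 0.000118), with no overlap between 0 and 2 h. Zfp593, whose yeast counterpart Bud20 exports the large subunit from the nucleus, was higher at 4 h than at 0 h by 0.53 ± 0.09 in KO and 0.45 ± 0.09 in WT cells (limma, adjusted p = 0.000516 and 0.0019). Its probe set has the suffix of sets that can read related sequences, and the gene was not called with the other one. All these calls of Zfp598, Zfp622 and Zfp593 were lost on the deposited scale, and at 2 h Zfp593 was not called in KO cells (0.23 ± 0.09, adjusted p = 0.0855).

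**Figure D2:**
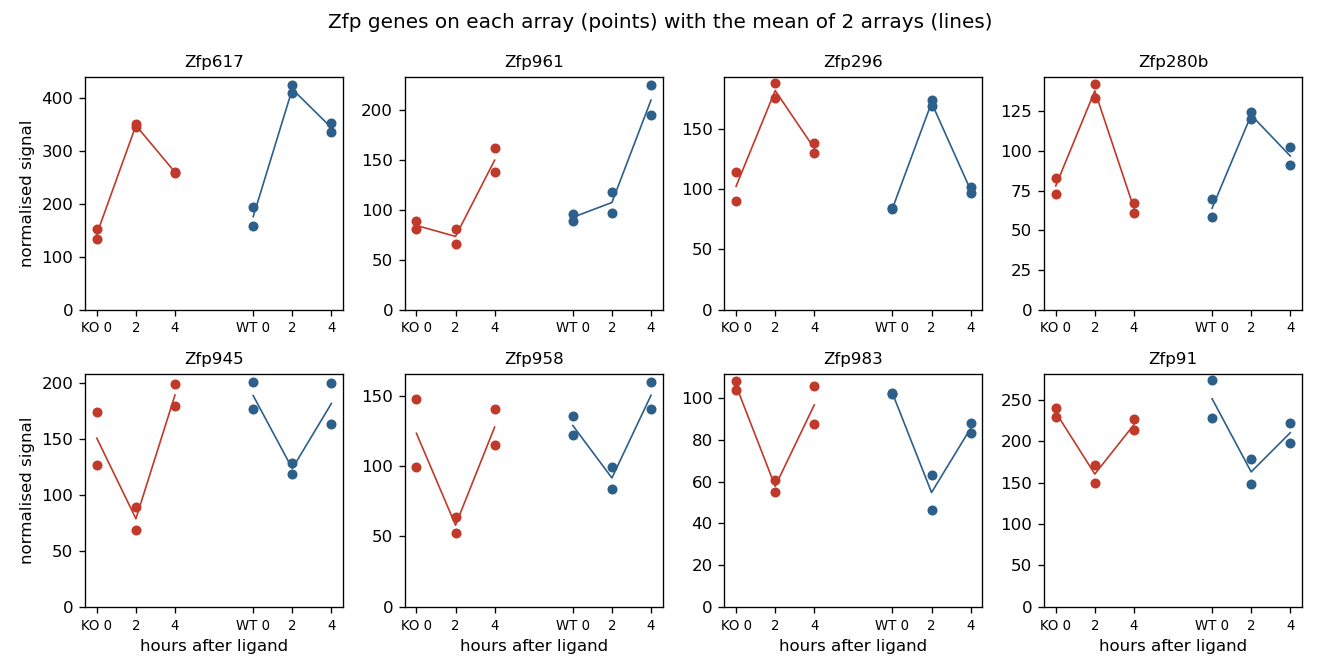
Quantile-normalised signal (linear scale from 0) of 8 Zfp genes on each of the 12 arrays against hours after the ligand, KO arrays in red at the left of each panel and WT arrays in blue at the right, with lines through the means of 2 arrays. The upper 4 genes rose at 2 or 4 h, with Zfp617 at 346 to 425 at 2 h. The lower 4 dipped at 2 h and stood higher again at 4 h.

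The members that fell at 2 h included several with no role named here that lie in Zfp clusters. Zfp983 gave 108 and 104 at 0 h, 54.9 and 60.6 by 2 h and 87.6 and 106 by 4 h on KO arrays. In WT cells the arrays read 102 and 103, then 63.1 and 46.5, then 83.2 and 88.0. The 2 h arrays were the lowest of each genotype, and the fall at 2 h was -0.73 ± 0.14 in KO and -0.75 ± 0.14 in WT cells (limma, adjusted p = 0.00174 and 0.00115), called under every alternative and with each array left out. Zfp945 gave 127 and 175 at 0 h, 68.6 and 89.1 by 2 h and 199.6 and 179 by 4 h on KO arrays. Its WT arrays read 201 and 177, then 129 and 119, then 163 and 201. It was lower at 2 h by -0.81 ± 0.15 and -0.55 ± 0.15 (limma, adjusted p = 0.00129 and 0.017), and the 2 h arrays lay below all others of their genotype. The WT call was lost without either WT 0 h A or WT 2 h B, with an adjusted p up to 0.122, and of the other 2 probe sets 1 changed upwards in both genotypes without a call.

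Zfp958 gave 147 and 99.0 at 0 h, 52.2 and 63.8 by 2 h and 115 and 140.3 by 4 h on KO arrays. In WT cells the arrays read 122 and 135, then 99.1 and 84.0, then 141 and 159.6. The fall at 2 h was -0.89 ± 0.16 in KO cells, called under every alternative (limma, adjusted p = 0.00105), and -0.43 ± 0.16 in WT cells, not called (adjusted p = 0.079). Zfp52 gave 97.8 and 97.0, 56.6 and 56.7, and 71.2 and 74.2 on KO arrays at 0, 2 and 4 h. On WT arrays it gave 143 and 167, 74.5 and 103, and 100.2 and 92.1. It fell by -0.64 ± 0.14 and -0.72 ± 0.14 at 2 h (limma, adjusted p = 0.00407 and 0.00157), with no overlap between 0 and 2 h, and by 4 h its arrays were still below those of 0 h.

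Zfp91, a ubiquitin ligase that acts on the NF-kB kinase NIK, gave 229 and 240.5 at 0 h, 149.5 and 171 by 2 h and 226 and 213 by 4 h on KO arrays. Its WT arrays read 228 and 274, then 178 and 148, then 198 and 222. The 2 h arrays were the lowest in both genotypes, by -0.51 ± 0.12 in KO and -0.58 ± 0.12 in WT cells (limma, adjusted p = 0.00634 and 0.00235), and the KO call was lost without KO 2 h A (with adjusted p = 0.0674). Zfp217, the CoREST and CtBP partner, gave 669 and 741, 598 and 558, and 639.9 and 579 on KO arrays at 0, 2 and 4 h. On WT arrays it gave 813 and 793, 574 and 596, and 715 and 669. It fell at 2 h by -0.28 ± 0.08 and -0.45 ± 0.08 (limma, adjusted p = 0.0249 and 0.000895), and the KO call was lost without either KO 0 h B or KO 2 h B, with an adjusted p up to 0.185.

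Zfp451, a SUMO ligase, fell by -0.40 ± 0.10 in KO and -0.47 ± 0.10 in WT cells at 2 h (limma, adjusted p = 0.0119 and 0.00335). The KO call was lost without either KO 0 h B or KO 2 h B, with an adjusted p up to 0.0926, and with the mean of its probe sets the gene was called in neither genotype. Of its 3 other probe sets 0 changed in the same direction in KO cells and 1 in WT cells. Zfp809, a KRAB protein that silences retroviral DNA primed by a proline tRNA in mouse stem cells, was named after its values were seen. It gave 346 and 337 at 0 h, 231 and 228 by 2 h and 262 and 291 by 4 h on KO arrays, against 382 and 355, 312 and 256, and 295 and 325 on WT arrays. The 0 h arrays were the highest of each genotype, and the falls at 2 h were -0.54 ± 0.10 and -0.36 ± 0.10 (limma, adjusted p = 0.00139 and 0.0197), the second of them lost without either WT 0 h A or WT 2 h B, with an adjusted p up to 0.242. Zfp292, whose human counterpart is mutated in a neurodevelopmental disorder, changed by -0.58 ± 0.18 and -0.63 ± 0.18 (limma, adjusted p = 0.0358 and 0.022), calls lost without KO 0 h B, KO 2 h A or KO 2 h B in KO cells (highest adjusted p 0.311) and without either WT 0 h A or WT 2 h A in WT cells (highest adjusted p 0.272). Zfp367 gave 54.1 and 71.6 at 2 h, against 114 and 94.3 at 0 h, on KO arrays, and 72.7 and 51.5, against 102 and 109.6, on WT arrays. The 2 h arrays lay below those of 0 h, by -0.61 ± 0.16 and -0.65 ± 0.16 (limma, adjusted p = 0.0111 and 0.0068), calls lost without KO 0 h A, KO 2 h A, WT 0 h B or WT 2 h B in their own genotype (highest adjusted p 0.114) and with the mean of its probe sets. Zfp652 fell in KO cells by -0.60 ± 0.16 at 2 h (adjusted p = 0.0126), lost without KO 0 h A, KO 0 h B or KO 2 h B, and by -0.66 ± 0.16 at 4 h (adjusted p = 0.00657), lost without KO 4 h B, and was not called in WT cells. Zfp276 and Zfp637 were called lower at 2 h in WT cells, by -0.67 ± 0.22 and -0.59 ± 0.18, and Zfp46 and Zfp959 higher in KO cells, by 0.60 ± 0.17 and 0.58 ± 0.18. Zfp189 rose at 2 h by 0.60 ± 0.16 in KO and 0.72 ± 0.16 in WT cells (limma, adjusted p = 0.0158 and 0.00477), lost without KO 0 h B, KO 2 h B or WT 2 h B in their own genotype (highest adjusted p 0.134) and on the deposited scale. Calls of Zfp276, Zfp637, Zfp46 and Zfp959 were each lost without at least 3 arrays taken singly (highest adjusted p 0.444). Zfp148 and Zfp281, which bind GC-rich promoters, and the transcription factor Zfp131 had no call against 0 h at either time in either genotype, with changes between -0.30 and 0.14.

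**Figure D3:**
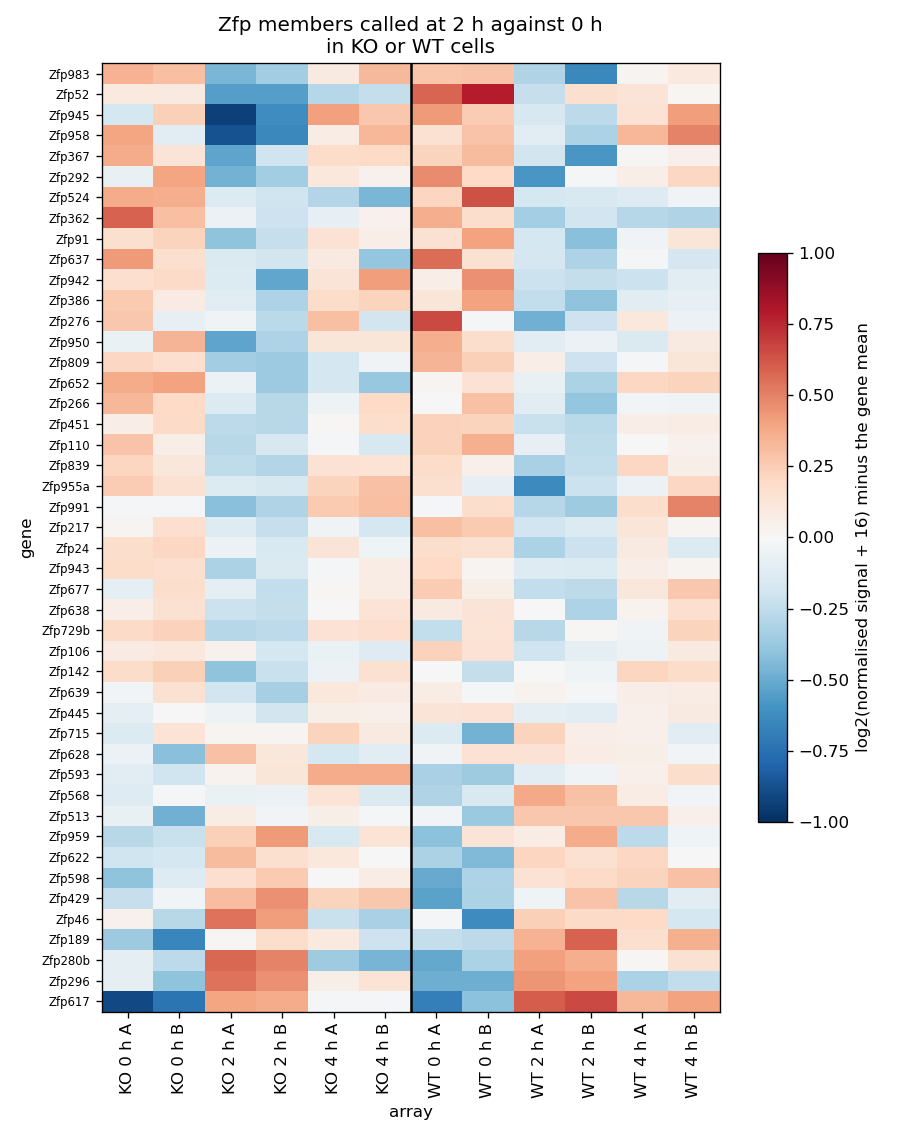
Heat map of the 46 members called at 2 h against 0 h in KO or WT cells, 1 row per gene, ordered by the mean of both changes from lowest at the top. Columns are the 12 arrays, KO left of the line and WT right, and colour is log2(normalised signal + 16) minus the gene's mean over the arrays (blue lower, red higher). The 2 h columns are blue in the upper rows and red in the lower rows of both genotypes.

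The calls at 2 h overlapped between the genotypes about as much as over all genes. KO and WT cells share no arrays, but normalisation and error estimates were drawn from all 12 arrays, so the lists of calls are not independent. Of the 24 members lower at 2 h in KO cells and the 23 in WT cells 15 were shared (62.5% and 65.2%), and of the 10 and 12 higher ones 8 were shared (80.0% and 66.7%). Of the 46 members called in either genotype 23 were thus called in both. Over all tested genes the shared portions were 62.9% and 64.4% of the lower and 75.3% and 70.0% of the higher calls, so the members' overlap is no result about them. Over the 130 members the changes at 2 h correlated between KO and WT with r = 0.79, against 0.89 over the other, brighter genes with a signal of 50 or more, as a description. Members chosen on 1 genotype could be read on the other. All 23 that were called lower in WT cells were also lower in KO cells, with a median of -0.43 at 2 h against 0 h. By 4 h their median in KO cells was -0.09, and 21 of the 23 stood higher at 4 h than at 2 h, 8 of them called. The 24 chosen in KO cells had medians in WT cells of -0.46 at 2 h and -0.20 at 4 h, and 23 stood higher at 4 h than at 2 h, 3 of them called. The 12 that were called higher in WT cells had medians in KO cells of 0.50 at 2 h and 0.30 at 4 h. The same reading was not made over all genes, so the return by 4 h is not read as particular to the members.

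At 4 h against 0 h fewer members were called. In KO cells 5 were lower and 6 higher, 3.85% and 4.62% of the members, against 10.9% and 7.25% of all genes. In WT cells 3 were lower and 8 higher, 2.31% and 6.15%, against 9.92% and 8.33%. The medians were -0.01 in both genotypes, and -0.05 and -0.02 over all genes. On the deposited scale 2 were lower and 0 higher in KO cells (limma, p under 0.05 without adjustment in the main setting for 12 lower and 15 higher), and 1 and 1 in WT cells. The share of all genes called on that scale is not given here, so those counts are not read as particular to the members. The 5 falls in KO cells became 2 without KO 0 h A and 3 without KO 0 h B, the 3 in WT cells 5 without WT 0 h A, and the 8 rises in WT cells 5 without WT 4 h B.

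Zfp961, the neighbour of Zfp617 on chromosome 8 with no protein-coding gene between them, was a late riser. It gave 88.1 and 80.2 at 0 h, 80.6 and 65.7 by 2 h and 137 and 161 by 4 h on KO arrays. In WT cells the arrays read 96.0 and 88.6, then 96.6 and 118, then 194 and 224. Only the 4 h arrays stood apart, by 0.72 ± 0.14 in KO and 1.06 ± 0.14 in WT cells against 0 h (limma, adjusted p = 0.00133 and 3.91e-05), while at 2 h it changed by -0.17 ± 0.14 and 0.18 ± 0.14, without a call. The WT call held under every alternative, the KO call was lost on the deposited scale, and the gene's other probe set gave 0.29 ± 0.24 and 0.21 ± 0.24 at 4 h, not called. Zfp617 was still higher at 4 h, by 0.80 ± 0.10 and 0.92 ± 0.10.

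Zfp160 gave 115 and 114 at 0 h, 122 and 122 by 2 h and 183 and 171 by 4 h on KO arrays, against 129.5 and 139.7, 166 and 163, and 162 and 183 on WT arrays. It was higher at 4 h than at 0 h by 0.56 ± 0.11 in KO cells (limma, adjusted p = 0.00119), kept with each array left out, and by 0.32 ± 0.11 in WT cells (adjusted p = 0.0432), lost without any 1 of the 6 WT arrays, KO 4 h A or KO 4 h B. Zfp871 and Zfp180 were higher at 4 h in KO cells, by 0.39 ± 0.10 and 0.39 ± 0.12 (limma, adjusted p = 0.0147 and 0.03), lost without KO 0 h B or KO 4 h B in both and without KO 0 h A or KO 4 h A for Zfp180, and Zfp703 and Zfp771 were called lower there, by -0.45 ± 0.14 and -0.36 ± 0.11, calls lost without KO 0 h A, KO 0 h B or KO 4 h A, among others.

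Zfp524 and Zfp362 stayed low at 4 h. Zfp524 gave 139 and 138 at 0 h, 93.0 and 88.0 by 2 h and 81.9 and 71.1 by 4 h on KO arrays. Its WT arrays read 123 and 169.8, then 90.1 and 91.9, then 93.2 and 101. The later arrays lay below those of 0 h, by -0.74 ± 0.14 in KO cells at 4 h, called under every alternative (limma, adjusted p = 0.00115), and by -0.51 ± 0.14 in WT cells (adjusted p = 0.0161), lost without either WT 0 h B or WT 4 h A, with an adjusted p up to 0.233. Zfp362 changed by -0.47 ± 0.12 in KO and -0.56 ± 0.12 in WT cells at 4 h (limma, adjusted p = 0.0145 and 0.00464). Its KO call was lost without either KO 0 h A or KO 4 h A, with an adjusted p up to 0.167 and its WT call when WT 0 h A was left out (adjusted p = 0.0575).

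Between 2 and 4 h more members rose than fell. In KO cells 16 were higher and 5 lower, against 6.48% and 7.23% of all genes, and in WT cells 9 were higher and 1, Zfp296, lower, against 5.35% and 5.75%. As shares these were 12.3% and 3.85% in KO cells and 6.92% and 0.769% in WT cells, and among the other genes with a signal of 50 or more 9.39% and 10.5%, and 7.93% and 8.50%. The members' medians were 0.10 in both genotypes, against 0.00 and 0.02 over all genes, and stayed above 0 under all 3 scalings. Without normalisation the median of all genes moved further above 0 as well, so the sign at that setting says nothing about the members. There 5 members were higher and 0 lower in KO cells, and 3 and 0 in WT cells, with the share of all genes not given here. The 16 rises became 8 without KO 2 h A, 9 without KO 2 h B, 7 without KO 4 h A and 5 without KO 4 h B, and the 9 in WT cells 5 without WT 2 h A, 3 without WT 4 h A and 3 without WT 4 h B. The 5 falls in KO cells became 1 without KO 2 h A, 3 without KO 2 h B and 1 without KO 4 h B.

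Zfp945 rose by 1.12 ± 0.15 between 2 and 4 h in KO cells, called under every alternative (limma, adjusted p = 0.000156), and Zfp958 by 0.96 ± 0.16 (adjusted p = 0.00106), also kept. In WT cells the same steps were 0.50 ± 0.15 and 0.63 ± 0.16 (limma, adjusted p = 0.0471 and 0.0209), and the first was lost without any 1 of the 6 WT arrays, KO 4 h A or KO 4 h B (highest adjusted p 0.31), the second without WT 2 h B, WT 4 h A or WT 4 h B (highest adjusted p 0.154). Zfp961 rose by 0.89 ± 0.14 in KO and 0.88 ± 0.14 in WT cells (limma, adjusted p = 0.000425 and 0.000588), the first lost with the mean of its probe sets. Zfp280b fell by -0.94 ± 0.13 in KO cells (limma, adjusted p = 0.000157), against -0.30 ± 0.13 in WT cells, not called (adjusted p = 0.164). Zfp46 fell by -0.75 ± 0.17 in KO cells (limma, adjusted p = 0.00927), lost without KO 2 h A or KO 4 h B, and was not called in WT cells (-0.20 ± 0.17). Zfp991 gave 105 and 116 at 2 h and 178 and 183 at 4 h on KO arrays, and 117 and 111 at 2 h and 167 and 213 at 4 h on WT arrays. It rose by 0.64 ± 0.12 and 0.66 ± 0.12 (limma, adjusted p = 0.00257 and 0.00239), kept with each array left out and lost with the mean of its probe sets. Zfp53 rose by 0.68 ± 0.16 in WT cells (adjusted p = 0.014), lost without WT 2 h A, WT 4 h A or WT 4 h B. Zfp207, the Bub3 partner, gave 588 and 614 at 2 h and 749.9 and 702 at 4 h on KO arrays, and 599.6 and 620.1 at 2 h and 787 and 778 at 4 h on WT arrays. Its rise of 0.35 ± 0.07 in WT cells (limma, adjusted p = 0.00505) was lost without WT 2 h A (with adjusted p = 0.0529), and the mean of its probe sets gave -0.05. Zfp318, which permits IgD expression in B cells, fell by -0.64 ± 0.13 in KO cells (limma, adjusted p = 0.0048), a call lost without either KO 2 h A or KO 4 h B, with an adjusted p up to 0.0688. In WT cells it changed by -0.08 ± 0.13 and was not called (adjusted p = 0.791). Cd79b, the B cell receptor subunit above, was lower at 4 h than at 2 h in both genotypes, by -1.21 ± 0.13 in KO and -0.95 ± 0.13 in WT cells. Of the other B cell markers, Cd79a changed by -0.85 and -0.33 and Blk by -0.46 and -0.53. Ebf1 changed by 0.11 and -0.15, and Ms4a1 by 0.04 and 0.02. The part of these markers in the result for Zfp318 was not tested.

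**Figure D4:**
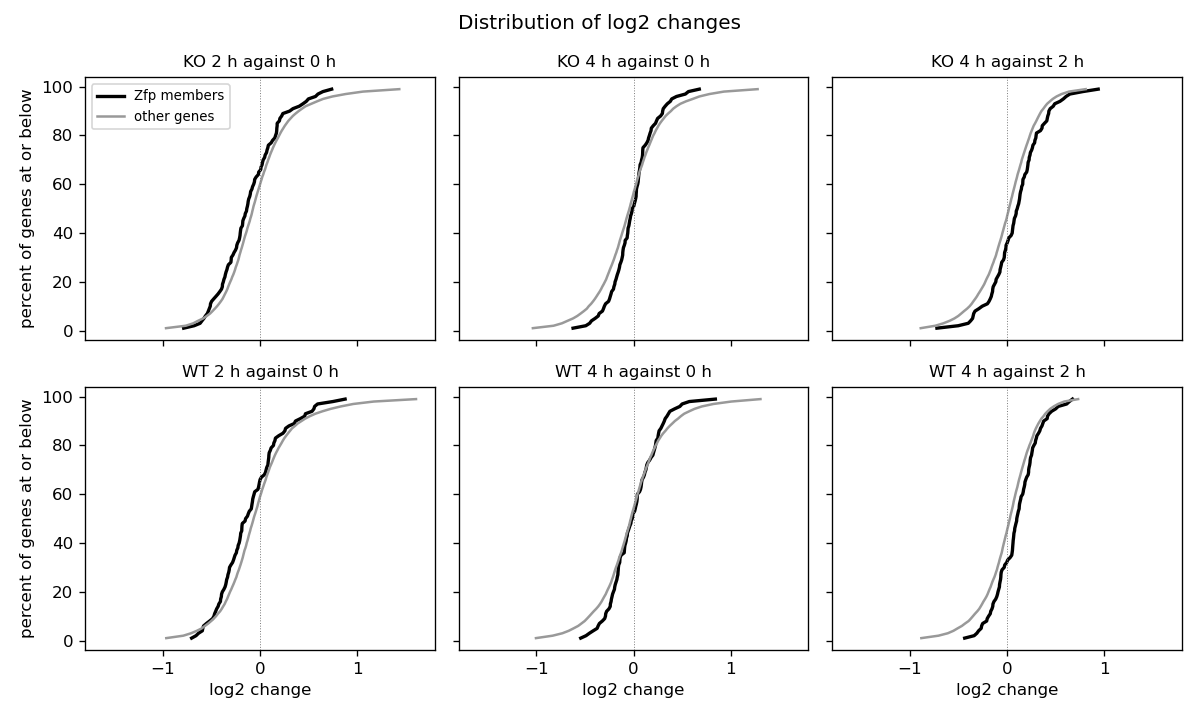
Distribution of log2 changes, as the percent of genes (y axis) at or below each change (x axis, log2), for the 130 Zfp members (black) and the 7867 other genes with a signal of 50 or more (grey), KO in the upper and WT in the lower row. The black curve lies left of the grey one over its middle at 2 h against 0 h and right of it at 4 h against 2 h, with medians of -0.14, -0.15, 0.10 and 0.10. These signs held under all 3 scalings, but without normalisation the median of all genes had the same signs.

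KO and WT cells differed in few members. At 0 h 2 of 130 were lower in KO cells and 0 higher, 1.54%, against 3.29% of all genes called in either direction. At 2 h 0 members were called in limma's test, with 16 lower and 3 higher at an unadjusted p under 0.05, against 2.29% of all genes called. At 4 h 0 were called, with 7 lower and 8 higher at that unadjusted p, against 2.4% of all genes. Averaged over the times, which compares 6 arrays with 6, 7 were lower and 4 higher in KO cells, 8.46% against 10.5% of all genes and 15.4% of the other genes with a signal of 50 or more. These shares do not exceed the background. Of the 6 macrophage markers 5 were called higher in KO cells in the averaged difference, C1qb by 0.66 ± 0.06 and Csf1r by 0.49 ± 0.05 (limma, adjusted p = 4.37e-06 and 1.84e-05). Mertk was higher by 0.29 ± 0.09 without a call (adjusted p = 0.0665). The 7 lower members differed in the other direction and the 4 higher members in the same one. Markers of other cell types differed too. Cd8b1, from the T cell list, and Ccr7 were lower in KO cells, by -0.42 and -0.17 (limma, adjusted p = 0.00025 and 0.00217). Cd79b was higher by 0.47 (adjusted p = 0.000675), as were Itgax, H2-Ab1 and Batf3. The remaining T cell and B cell markers tested were not called. The part of the markers in the result was not tested.

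Zfp961 and Zfp617 were lower in KO cells on average. Zfp961 differed by -0.34 ± 0.08 averaged over the times (limma, adjusted p = 0.0102) and Zfp617 by -0.30 ± 0.06 (adjusted p = 0.00373), both kept under every alternative and with each array left out. As the values above show, all KO arrays of both genes lay below the WT arrays of the same time. Zfp180 gave 97.7 and 91.1 at 0 h, 103 and 111 by 2 h and 134 and 123 by 4 h on KO arrays, against 122 and 149, 146 and 155, and 145 and 141 on WT arrays. It was lower by -0.34 ± 0.07 (limma, adjusted p = 0.00404), kept likewise, with no overlap at any time.

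Zfp52 was lower in KO cells by -0.48 ± 0.08 on average (limma, adjusted p = 0.00106), a call kept with each array left out and lost with the mean of its probe sets. Its difference at 0 h, -0.59 ± 0.14 (adjusted p = 0.0288), was lost without any 1 of the 4 arrays at 0 h (highest adjusted p 0.279). Zfp263 gave 467 and 454 on KO arrays at 0 h, against 616 and 597 on WT arrays, a difference of -0.39 ± 0.09 (limma, adjusted p = 0.0244) that was also lost without any of those 4 arrays (highest adjusted p 0.137). The other called members were Zfp189 and Zfp212, lower by -0.32 and -0.25, and Zfp429, Zfp296, Zfp593 and Zfp277, higher by 0.33, 0.23, 0.20 and 0.20. Calls of these 6 and of Zfp263 were each lost without at least 5 of the 12 arrays taken singly (highest adjusted p 0.128). The 7 lower members became 4 without WT 4 h B, and the 4 higher ones 0 without KO 4 h B, WT 2 h A or WT 4 h A, 1 without KO 0 h A or WT 0 h B, and 2 without KO 2 h A, KO 2 h B, WT 2 h B or WT 4 h B.

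**Figure D5:**
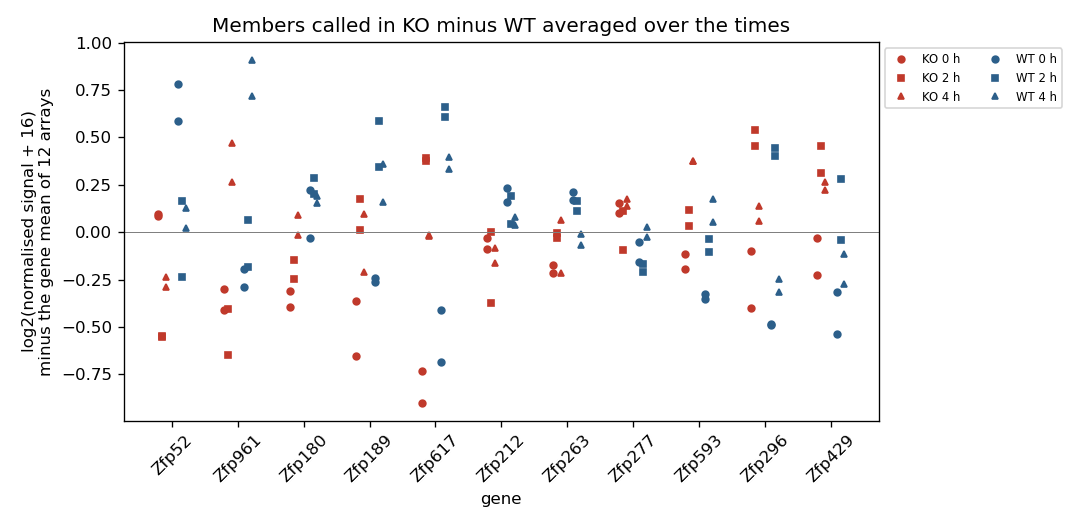
The 11 members called in the KO minus WT difference averaged over the times, as log2(normalised signal + 16) minus the gene's mean over 12 arrays, ordered from the lowest difference (-0.48, Zfp52) to the highest (0.33, Zfp429). Each point is 1 array, KO in red left of WT in blue, and the marker gives the time. For Zfp52, Zfp961, Zfp180, Zfp189, Zfp617 and Zfp212 both KO arrays of each time lie below both WT arrays.

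No member's response was called different between genotypes. The difference of the 2 h responses had 0 calls among the members, with 5 below and 2 above 0 at an unadjusted p under 0.05 in limma, and 0.0313% of all genes called. The difference of the 4 h responses had 0, with 4 below and 5 above 0 unadjusted, and 0.0469% of all genes called. The members with the smallest p were Zfp568, a KRAB protein that represses a placental Igf2 transcript, for 2 h and Zfp280b for 4 h. Zfp568 gave 109 and 119.7 at 0 h and 115 and 116 at 2 h on KO arrays, and 95.0 and 107 at 0 h and 162 and 152 at 2 h on WT arrays. It was called higher at 2 h in WT cells, by 0.56 ± 0.12 (limma, adjusted p = 0.00372), and not in KO cells (0.01 ± 0.12), with the WT call lost on the deposited scale and with the mean of its probe sets. Its responses differed by -0.55 ± 0.17 (limma, adjusted p = 0.666), and those of Zfp280b at 4 h by -0.73 ± 0.18 (adjusted p = 0.377). A p that misses the threshold does not show that the responses were alike.

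Chromosomes 7 and 17 held the most members, 21 each. By RefSeq gene order 68 members had another Zfp gene among the 3 protein-coding genes on either side and 62 had none. At 2 h 11 of the 68 and 13 of the 62 were lower in KO cells, and 14 and 9 in WT cells, so falls were found in both kinds and the difference between kinds was not tested. On chromosome 17, 5 of 21 members (23.8%) were lower at 2 h in KO cells and 6 (28.6%) in WT cells, Zfp52, Zfp945 and Zfp983 among them in both. Of all 130 members 18.5% and 17.7% were lower, and of all genes 11.7% and 11.5%. These differences were not tested. Zfp52 and Zfp983 are separated by 1 protein-coding gene, Zfp948. Mapk14 lies on chromosome 17 too, with 13 protein-coding genes between it and the nearest member, Zfp523, which did not pass the test in any comparison of KO with WT. Of the 130 members 78 had several probe sets on the array. Among members called at 2 h with another tested probe set, 19 of 26 other sets in KO cells and 24 of 36 in WT cells changed in the same direction, and 0 were called in the opposite one. For 13 members the brightest probe set carries a suffix that marks possible reading of related sequences, so near-identical Zfp genes cannot be fully told apart there.

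The partners of KRAB proteins moved in both directions. Of 23 co-repressor genes, all tested, 4 were lower and 3 higher at 2 h in KO cells, and 5 lower and 1 higher in WT cells. Over all genes 11.7% were lower and 7.84% higher in KO cells, and 11.5% and 8.43% in WT cells. The median change of the 23 genes was -0.21 in both genotypes, against -0.06 and -0.05 over all genes. Differences from all genes were not tested for a set this small. Trim28, the scaffold itself, gave 603 and 548 at 0 h, 582 and 439.5 by 2 h and 627 and 610.0 by 4 h on KO arrays, and 567 and 603, 549 and 592, and 608 and 664 on WT arrays at those times. The groups overlapped, and its changes at 2 h were -0.18 ± 0.11 in KO and -0.04 ± 0.11 in WT cells, not called (limma, adjusted p = 0.28 and 0.87), nor was Setdb1. Dnmt1, the maintenance DNA methyltransferase, fell by -0.56 ± 0.11 and -0.51 ± 0.11 at 2 h (limma, adjusted p = 0.0027 and 0.0046), and Chd4, the ATPase of the NuRD complex, rose by 0.37 ± 0.11 and 0.53 ± 0.11 (adjusted p = 0.028 and 0.0026). Hdac1 and Rbbp7 fell in both genotypes at both times. At 4 h 2 of the 23 were lower and 3 higher in each genotype. Of all genes 10.9% were lower and 7.25% higher at 4 h in KO cells, and 9.92% and 8.33% in WT cells. Zinc finger genes under the symbols Zbtb, Zscan, Zkscan, Znf or Zik, 32 with a signal of 50 or more, had 8 lower and 4 higher at 2 h in KO cells and 6 and 2 in WT cells, with medians of -0.08 and -0.06. At 4 h 2 were lower and 0 higher in KO cells (6.25% and 0%), and 4 and 2 in WT cells (12.5% and 6.25%). The shares of all genes at both times stand above, and differences from them were not tested.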

How the data were processed

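The authors deposited 1 table of linear intensity values for 12 arrays, made with MAS5 per the submitters' processing notes. The sources used here do not give its scaling target or version. Trimmed means differed 1.79-fold between arrays, so the linear values were quantile-normalised and tested as log2(value + 16), a scale that understates changes of low genes and makes changes relative to the bulk of probe sets. Of 45101 probe sets 34958 had 1 symbol, 932 several and 9211 none in the platform annotation. All 130 members matched a RefSeq gene table (GRCm38.p6) by Entrez identifier, used for names and neighbours. The brightest probe set stood for a gene, and genes below the 40th percentile of the mean were not tested.

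One model of 6 group means was fitted to the 12 arrays by limma 3.58.1 under R 4.3.3 (lmFit, then trended eBayes, 6 residual degrees of freedom, two-sided, Benjamini-Hochberg over 12792 genes per comparison). Tables were made with Python 3.11.15. The test was tried on simulated data. Errors are SE unless given as SD, and the number of arrays limits the precision. Alternatives were pseudocounts of 1 and 64, the deposited scale, trimmed-mean scaling, no filter or a 60th percentile filter, the mean of all probe sets, only probe sets that lack _x_at or _s_at, untrended eBayes, only the groups compared in the fit, the replicate letter as a block, a threshold of 0.1, and each array left out in turn.

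The members, lists, tests and naming rule were chosen with earlier results of these data known. Genes named are the 6 lowest and 6 highest called members against 0 h and the 4 lowest and 4 highest of 4 h against 2 h whose arrays do not overlap, all called in KO minus WT, and a choice of members with a well-known role. Named genes were traced in every comparison; others are marked as chosen after their values were seen. Replicate letters were checked for pairing: deviations of same-lettered arrays correlated between -0.044 and 0.108 over 15 pairs of groups (median 0.025). No effect shared by a letter was thus seen. This cannot show whether same-lettered arrays came from the same animal or culture. Protein sequences were not analysed here.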

Additional observations from a re-analysis of the deposited data

How the results depend on the processing

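The 113 calls traced were those of the named members and of Zfp386, which was added after its values were seen. Of these calls 43 held with each array left out and 23 under every other alternative. The deposited scale lost 62, the mean of all probe sets 48, eBayes without trend 35, no filter 18, the fit of only the groups compared 17, trimmed-mean scaling 6, probe sets without suffixes 5, a pseudocount of 1 lost 2 and one of 64 lost 1. The cause was not tested. Unnormalised, the median of all genes shifted to -0.41 (KO) and -0.35 (WT) at 2 h and -0.20 and -0.16 at 4 h, against member medians of -0.58, -0.53, -0.20 and -0.20, and to 0.20 and 0.19 between 2 and 4 h, against 0.35 and 0.31. Counts there were 55 lower and 1 higher (KO 2 h), 2 and 0 (KO 4 h), 41 and 1 (WT 2 h), 1 and 1 (WT 4 h), 0 and 5 (KO 4 h against 2 h), 0 and 3 (WT 4 h against 2 h), 0 lower for KO minus WT at 0 h and 0 higher in the average. With the mean of all probe sets, 12 (KO) and 14 (WT) were lower at 2 h, 2 at 4 h in KO, 3 lower and 9 higher (KO) and 2 lower and 5 higher (WT) at 4 h against 2 h, 1 lower in KO minus WT at 2 h and 1 at 4 h, and 2 higher in the average. Fitting only the groups compared left 3 lower at 4 h in KO, 15 lower at 2 h in WT and 1 lower in KO minus WT at 0 h. eBayes without trend left 13 lower at 2 h in WT, 3 lower and 10 higher at 4 h against 2 h in KO, 0 lower in KO minus WT at 0 h, and 4 lower and 1 higher in the average. For the higher members at 2 h in WT it left 8. With trimmed-mean scaling 5 were lower at 4 h in WT, no filter left 1 lower in KO minus WT at 0 h, and the 60th percentile filter gave 1 lower in KO minus WT at 4 h. At adjusted p under 0.1 there were 11 higher at 4 h in KO, 25 higher at 4 h against 2 h in KO, 9 lower at 4 h in WT, and 5, 2 and 12 lower in KO minus WT at 2 h, at 4 h and averaged. Shares of all genes called under these alternatives are not given here, so the counts only describe how the members' calls moved.

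With 1 array left out the counts lower and higher ran from 10 to 22 and 5 to 10 (KO 2 h), 2 to 6 and 4 to 8 (KO 4 h), 1 to 5 and 5 to 17 (KO 4 h against 2 h), 11 to 22 and 6 to 12 (WT 2 h), 2 to 5 and 5 to 9 (WT 4 h), and 1 to 1 and 3 to 8 (WT 4 h against 2 h). For KO minus WT they were 0 to 2 lower at 0 h, 0 to 1 at 2 h, 0 to 1 at 4 h, and 4 to 7 lower and 0 to 3 higher in the average. With the replicate block, 25 and 11 (KO 2 h), 6 and 9 (KO 4 h), 23 and 13 (WT 2 h) and 4 and 9 (WT 4 h) were lower and higher, 1 was lower in KO minus WT at 4 h, and 0 of the 113 calls were lost. Signs turned for Zfp451 in WT at 2 h (0.014) and Zfp207 in WT at 4 h against 2 h (-0.054) with the mean of all probe sets, and for Zfp593 in WT at 2 h (-0.11 on the deposited scale, -0.026 without suffixed probe sets) and at 4 h (-0.067 without them). Genes with only suffixed probe sets gave no value there. With Zfp genes of signal 25 or more, 31 of 196 were lower and 12 higher at 2 h in KO cells, and with 100 or more 15 and 5 of 68. Detection limits were not given, so dim members rest on the signal alone.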
